A study of Rattus norvegicus with 6 samples.

Results

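The miR-17-92 cluster is a group of microRNAs (miRNAs) that are cut from a single primary transcript, and its products were measured here in the left ventricle of diabetic and non-diabetic rats. The members were the 7 assays named miR-17, miR-17-3p, miR-18a, miR-19a, miR-19b, miR-20a and miR-92a, chosen by name among 584 miRNA assays. The study compared 3 OLETF rats, an inbred strain that becomes obese and develops type 2 diabetes, with 3 LETO rats, its healthy control strain. Every OLETF rat was labelled diabetic and every LETO rat healthy, so diabetes, strain and body weight cannot be told apart, and the labels give no age or treatment. Whole ventricular tissue was assayed by reverse transcription and quantitative PCR, so fewer cells of a type and less RNA per cell cannot be told apart. The labels do not say whether the rats came from separate litters or were processed on separate days, so p-values measure only the spread between these 6 samples.

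The cluster is known as a target of the transcription factors MYC and E2F and is often called an oncogenic miRNA cluster. Its products promote proliferation and survival, among other ways by repressing the cell cycle inhibitor p21 and the proapoptotic protein BIM. In the heart the cluster is known for driving cardiomyocyte proliferation in development, for repressing fibrosis-related secreted proteins through miR-18a and miR-19, and for restraining vessel growth through miR-92a.

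In the RefSeq annotation of the rat assembly GRCr8, the 6 hairpins of the cluster lie at chr15:98587848-98588632 on the plus strand, a span of 785 bases. They follow each other in the order Mir17, Mir18a, Mir19a, Mir20a, Mir19b1 and Mir92a1. No other annotated gene overlaps the span, and the next protein-coding gene downstream, Gpc5, starts 25867 bases further on. All 7 members were matched to a rat mature sequence of this table. The sequences are given 5′ to 3′ because the products of this transcript fall into families by seed, the bases 2 to 8 that pair with target mRNAs, which are in capitals.

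miR-17: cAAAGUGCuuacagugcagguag
miR-20a: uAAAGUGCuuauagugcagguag
miR-18a: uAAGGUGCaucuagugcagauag
miR-19a: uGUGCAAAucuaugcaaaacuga
miR-19b: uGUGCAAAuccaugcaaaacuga
miR-92a: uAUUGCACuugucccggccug
miR-17-3p: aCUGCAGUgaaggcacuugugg

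miR-17 and miR-20a share a seed and differ at 2 of 23 bases, C1U and C12U, written as the base of the first miRNA, its position from the 5′ end, and the base of the second. miR-18a has a seed of its own, and differs from miR-20a at 4 positions, among them G4A within the seed. miR-19a and miR-19b also share a seed and differ by a single substitution, U11C. miR-92a belongs to another seed family, and miR-17-3p is the opposite arm of the miR-17 hairpin.

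The same mature miRNAs do not all come from this locus alone. A paralogous cluster lies at chrX:137342777-137343647 on the minus strand, and there RefSeq lists identical mature copies of miR-17 (from the gene Mir106a, also named Mir17-2), miR-19b (Mir19b2) and miR-92a (Mir92a2). An assay for these 3 members therefore cannot tell the chromosome 15 from the X copy. miR-18a, miR-19a, miR-20a and the 3p arm of Mir17 have a single entry each. The 3p arm from the X copy is printed to show that it differs from miR-17-3p already within the seed.

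miR-17-2-3p: aCUGCACUgcaagcacuucuuac

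All 7 members were measured in single wells of the first of 2 assay cards (card A), as threshold cycles (Ct). The Ct falls as RNA rises, and with a doubling per cycle a difference of 1 cycle equals 1 log2 unit. A Ct of 35 or more, or a well without a Ct, was treated as not measured. Levels are minus the difference between the Ct of a member and that of U6, the small nuclear RNA used as endogenous control. Between 197 and 292 assays were measured per sample. The sample that stood apart the most was LETO replicate 3, in which 292 assays were measured. Over the 162 assays measured in all 6 samples, the median of its Ct minus the mean Ct of the other 5 samples was -2.81 cycles. The U6 Ct of that sample on card A, 17.9, lay within the range of 17.5 to 19.2 of the other samples. The group differences, the spread of the members and their likeness are therefore also given without LETO replicate 3. OLETF replicate 3 came next, with 228 assays measured and a median card A level of -9.74 log2 units relative to U6. That median was -8.61 in LETO replicate 3 and ran from -12.06 to -10.82 in the remaining samples. The precision of a single well was judged from 189 pairs of duplicate wells on the second card, for which the SD of a well was 0.486 cycles.

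The heart muscle markers miR-1, miR-133a, miR-133b, miR-208, miR-208b and miR-499 were measured in all 6 samples (7 of 7 assays), while the liver marker miR-122, the neuronal marker miR-124 and the islet marker miR-375 were measured in none. The summed linear level of each marker list, relative to the card A median and on the log2 scale, overlapped between the groups. It ran from 10.09 to 12.22 in LETO and 10.73 to 11.66 in OLETF for heart muscle, 8.74 to 9.60 and 8.88 to 9.51 for endothelium (miR-126-3p and miR-126-5p), and 5.97 to 8.03 and 6.82 to 7.82 for leukocytes (5 assays). A linear sum mostly follows the assay with the highest level, which for heart muscle was miR-133a. Taken singly, 7 of 7 heart muscle assays, with a mouse and a rat assay for miR-1, had a lower mean in OLETF relative to the card median, where 130 of 193 assays did. For endothelium it was 1 of 2, and for leukocytes 1 of the 4 with enough measured samples. It was 2 of 2 for smooth muscle (miR-143 and miR-145) and 2 of 3 for fibroblasts (miR-21, miR-199a-3p and miR-214). For red cells it was 0 of the 1 tested, miR-486. The part of these cell types in the member values was not tested.

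miR-17 and miR-19b gave the strongest signals of the cluster, with miR-20a and miR-92a next, then miR-19a and miR-17-3p, while miR-18a was near or below detection. The level of miR-17, the 5p product of the first hairpin and the seed prototype of its family, relative to U6 was -7.15, -8.74 and -6.28 log2 units in LETO (replicates 1, 2 and 3, as in all lists that follow) and -7.91, -7.70 and -6.32 in OLETF. The groups overlapped, and replicate 3 was the highest sample of each. miR-20a, which shares its seed, lay at -10.03, -11.10 and -7.12 in LETO and at -10.82, -11.33 and -8.16 in OLETF. Here too the groups overlapped, and replicate 3 stood above the other samples of its group by over 1 cycle.

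The miR-19 pair, which shares a seed of its own within the cluster, spread the most. miR-19b lay at -8.03, -9.90 and -4.63 in LETO and at -9.45, -9.70 and -6.76 in OLETF. miR-19a lay at -12.75, -13.27 and -8.13 in LETO and at -13.73, -14.02 and -10.50 in OLETF. For both, LETO replicate 3 was the highest of all samples and OLETF replicate 3 the next. The groups overlapped in both; for miR-19a, OLETF replicates 1 and 2 lay below every LETO sample and OLETF replicate 3 lay above LETO replicates 1 and 2.

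miR-92a, the last hairpin of the transcript and the product known for its action in endothelium, lay at -10.57, -11.32 and -7.81 in LETO and at -10.93, -10.15 and -8.79 in OLETF. Its groups overlapped, with the highest and the lowest of the 6 values both in LETO. miR-17-3p lay at -13.88 and -12.24 in LETO replicates 1 and 3, was undetermined in LETO replicate 2, and lay at -14.56, -14.38 and -13.43 in OLETF.

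miR-18a, the member known in the heart for repressing matrix proteins, was measured in LETO replicate 3 alone, at a Ct of 33.0 and a level of -15.13. OLETF replicates 1 and 3 gave a Ct of 38.1 and 35.4, above the limit, and the other 3 samples gave none. Since only the sample with the lowest Ct values over all assays crossed the limit, no group difference is given for it.

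**Figure D1:**
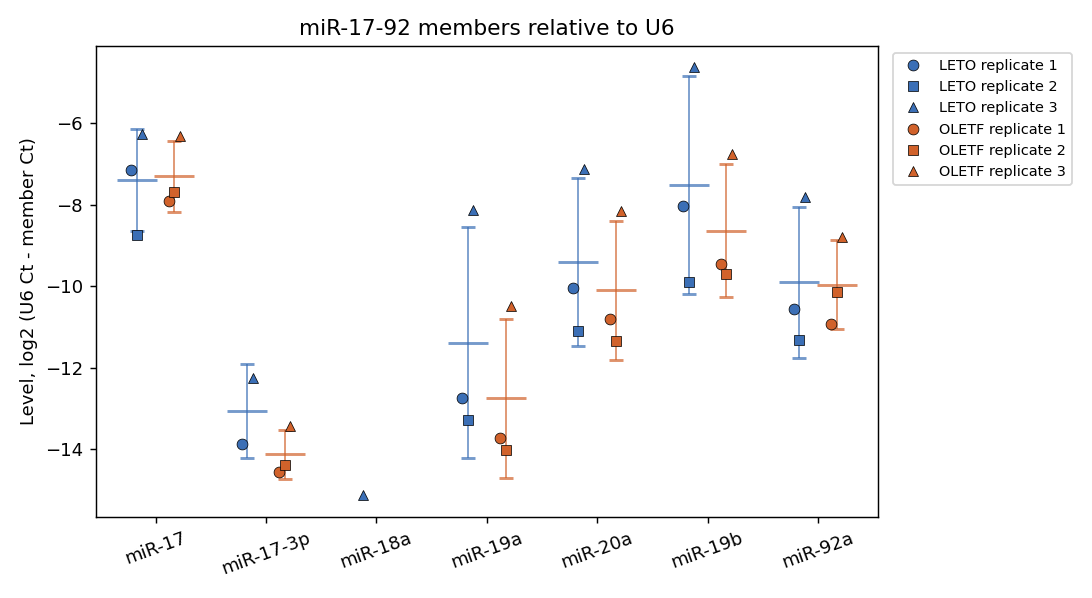
Level of each member relative to U6 (y axis, log2 of U6 Ct minus member Ct) in each sample, with members on the x axis in the order of their hairpins and miR-17-3p beside miR-17. Blue marks are LETO and orange marks OLETF, marker shapes are replicates, and horizontal lines with bars are group means ± SD where at least 2 samples were measured; for miR-19a and miR-19b the triangles of replicate 3 lie above the other 2 samples of their group.

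The members of the cluster thus spanned a wide range of apparent levels. The signals of miR-17, miR-19b and miR-92a may include the X copies, so they are not those of a single transcript alone. These are signals of different assays, whose amplification efficiencies are not given in the sources used here, so a difference in Ct between members is not a ratio of molecules. Neighbours in the order of mean levels were compared within samples, where the reference cancels, by exact sign-flip permutation tests (two-sided) over 5 pairs of neighbours. The order was taken from these same samples, so the tests are not independent of it. A constant offset between assays would also keep the sign, and the share of other assay pairs that keep 1 sign is not given here. miR-19b lay above miR-20a by 1.68 ± 0.48 log2 units (SD, n = 6) in 6 of 6 samples, with an exact permutation p of 0.0312, the smallest that 6 samples allow (adjusted over the 5 pairs 0.0781). miR-92a lay above miR-19a by 2.14 ± 1.18 in 6 of 6 samples, with the same exact permutation p and adjusted value; neither pair passed 0.05 after adjustment.

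For the other neighbours the evidence was weaker or the order varied. miR-17 lay above miR-19b by 0.73 ± 1.28 (SD, n = 6; exact permutation p = 0.25) in 5 of 6 samples. In LETO replicate 3 the order was turned (-1.64), and without that sample miR-17 lay above miR-19b in 5 of 5 samples by 1.21 ± 0.60. miR-20a and miR-92a differed by 0.17 ± 0.70 (n = 6, exact permutation p = 0.562), within the spread between samples. miR-19a lay above miR-17-3p in 5 of 5 samples by 1.87 ± 1.59, with an exact permutation p of 0.0625, the smallest that 5 samples allow.

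Both arms of the Mir17 hairpin were detected. The 5p arm, miR-17, gave a signal above that of miR-17-3p in each of the 5 samples with both, by 6.73 and 5.97 log2 units in LETO and by 6.66, 6.68 and 7.12 in OLETF. The mean of 6.63 corresponds to a 98.9-fold difference in signal if every cycle doubled the product and both assays were equally efficient, which was not measured. The SD of this difference over the samples was 0.42 (n = 5). The groups overlapped (exact permutation p = 0.4 with 2 against 3 samples).

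The passenger-strand assays of the cluster on the second card (miR-17* of the mouse, miR-18a*, miR-19a*, miR-20a* of mouse and rat, and miR-92a*) lay at or beyond the limit of detection. Of these 6 assays, 4 were measured in no sample. The mouse miR-17* assay, the highest of the list, was measured in LETO replicate 3 (-15.00) and OLETF replicate 1 (-17.64), and the miR-18a* assay in LETO replicate 3 alone (-16.32). Both assays had duplicate wells. The values of miR-17* in OLETF replicate 1 (Ct 34.6) and of miR-18a* (Ct 34.3) came from a single well, as the duplicate gave no Ct. In LETO replicate 1 both miR-17* wells gave a Ct (36.4 and 35.1), and the assay counted as not measured. None was measured often enough to be tested, so no largest difference can be named. The mouse miR-17* assay is for the 3p arm of miR-17, as is the rat miR-17-3p assay, which was measured in 5 samples. The signal of this arm thus depended on the assay, and why was not tested.

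The central question was whether the cluster differs between diabetic and control hearts. A test required at least 2 measured samples per group, which 6 of the 7 members met. Of these, 0 passed an adjusted p of 0.05 (limma, Benjamini-Hochberg over all 193 assays tested), where 0% of all assays did. At an unadjusted p under 0.05 there were also 0 members, against 2 of 193 assays (1.04%). Relative to U6, 5 of 6 tested members lay lower in OLETF, with a median of -0.88 log2 units, beside 156 of 193 assays and a median of -0.60 over all assays.

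The 2 products of the miR-19 family had the largest differences of the members measured in all samples. The LETO mean of miR-19a was -11.38 ± 2.83 and its OLETF mean -12.75 ± 1.95 (SD over 3 samples each), a difference of -1.36 (SE 1.38, limma adjusted p = 0.997). miR-19b lay at -7.52 ± 2.67 and -8.64 ± 1.63, a difference of -1.11 with the same SE and adjusted p. Both differences were smaller than the SD of either group, and the exact permutation p-values were 0.5 and 0.7, where 3 against 3 samples allow no p below 0.1.

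The seed partners miR-17 and miR-20a differed by 0.08 (limma SE 1.38) and -0.69 (SE 1.38), and miR-92a by -0.06 (SE 1.38). miR-17-3p differed by -1.07 (SE 1.54) over 2 LETO and 3 OLETF samples. The limma adjusted p was 0.997 for each of these 4. The SE is common to all assays because limma drew it almost wholly from the spread over all assays, so it is not the spread of a single member.

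Leaving out LETO replicate 3 turned the direction of 4 of these differences. Without it, relative to U6, all 5 members that could be tested lay higher in OLETF, by 0.27 for miR-19a, 0.33 for miR-19b, 0.46 for miR-20a, 0.64 for miR-17 and 0.99 for miR-92a (SE 1.20 each, limma adjusted p = 0.998). The median over all assays likewise moved from -0.60 to 0.38. Most members thus had the sign of the median assay relative to U6, both with this sample and without it.

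To lessen the common shift between samples, each member was set against the median of the card A assays measured in all 6 samples. This does not remove a shift of unequal size, as in LETO replicate 3. There the Ct minus the mean of the other samples was -1.49 for miR-17 and -4.93 for miR-19a. On this scale the median difference over all 193 assays was -0.31, with 130 lower, and that of the 6 members -0.28, with 4 lower. The smallest limma adjusted p among members was 0.632, and 0 members reached an unadjusted p under 0.05, where 6.22% of all assays did.

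Relative to the card median, miR-17 was almost constant in OLETF, at 3.38, 3.37 and 3.42, against 3.67, 3.32 and 2.33 in LETO. The OLETF values lay inside the LETO range, and the difference was 0.28 (limma SE 0.43), which turned to -0.11 without LETO replicate 3. miR-92a lay at 0.25, 0.73 and 0.80 in LETO and at 0.35, 0.92 and 0.95 in OLETF, a difference of 0.14 (SE 0.38), or 0.25 without LETO replicate 3. The 2 groups of miR-92a covered nearly the same range.

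miR-19a lay at -1.93, -1.22 and 0.48 in LETO and at -2.44, -2.95 and -0.76 in OLETF, lower in 7 of 9 pairs of an OLETF and a LETO sample. The difference was -1.16 (limma SE 0.75, adjusted p = 0.632; exact permutation p = 0.3, n = 3 each). miR-19b lay at 2.79, 2.16 and 3.98 in LETO and at 1.84, 1.37 and 2.98 in OLETF, also lower in 7 of 9 pairs, and differed by -0.91 (limma SE 0.59, adjusted p = 0.632; exact permutation p = 0.3, n = 3 each). OLETF replicate 3 overlapped the LETO range in both, and without LETO replicate 3 the differences were -0.48 and -0.41. Within replicates 1 and 2 alone, a split made after seeing the data, they were -1.12 (SE 0.38, limma adjusted p = 0.263, unadjusted 0.0285) and -0.87 (SE 0.36, limma adjusted p = 0.304). In that split 25 of 163 assays had an unadjusted p under 0.05 (limma).

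miR-20a lay at 0.79, 0.96 and 1.49 in LETO and at 0.47, -0.26 and 1.57 in OLETF, a difference of -0.49 (limma SE 0.51), or -0.28 without LETO replicate 3. The highest and the lowest of its 6 values were both in OLETF. miR-17-3p differed by -0.08 (SE 0.43), with LETO at -3.06 and -3.63 and OLETF at -3.27, -3.31 and -3.70. Of the 5 members measured in all samples, 0 had groups that did not overlap on this scale, against 13.6% of the 162 assays.

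**Figure D2:**
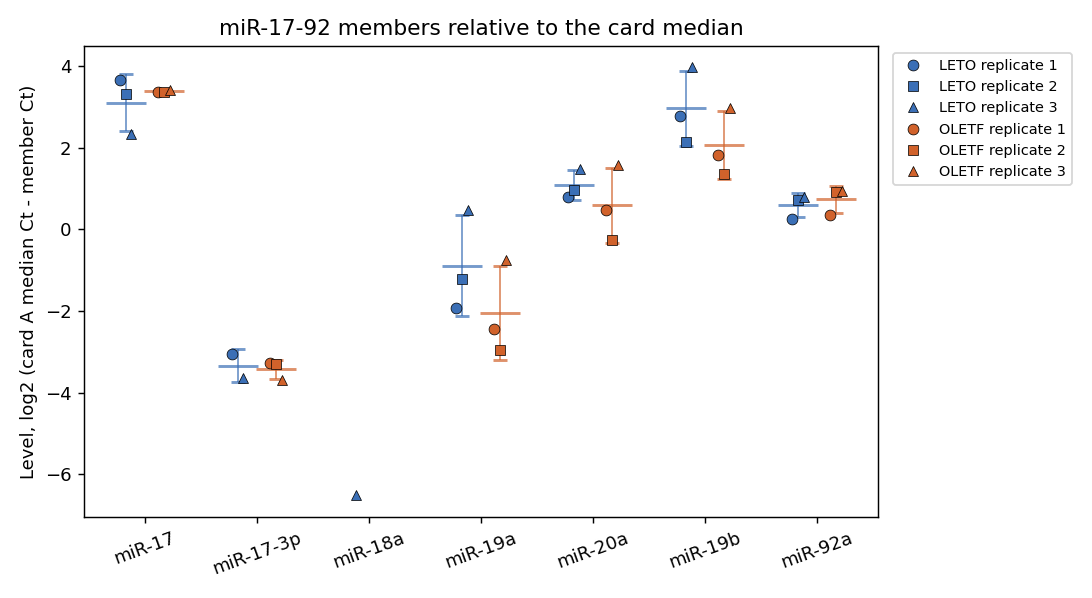
Level of each member relative to the card A median (y axis, log2 of median Ct minus member Ct), with members on the x axis in the order of their hairpins. Blue marks are LETO, orange marks OLETF, marker shapes are replicates, and lines with bars are group means ± SD; the OLETF values of miR-17 lie between 3.37 and 3.42, while those of miR-19a run from -2.95 to -0.76.

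The sign of 3 of the 6 member differences depended on the reference. miR-19a and miR-19b lay lower in OLETF with all 4 references when all samples were used, at differences of -0.88 and -0.63 with the median over both cards and -0.51 and -0.26 with snoRNA135, U87 and Y1 taken as controls in place of U6. miR-17 lay higher with all 4, by 0.57 and 0.93 with these last 2 references. miR-92a was -0.06 with U6 and 0.14, 0.43 and 0.79 with the card median, the median over both cards and the other controls. miR-20a turned to 0.16 with the other controls, and miR-17-3p to 0.28 with the median over both cards and 1.11 with the other controls. These references themselves moved the median of all assays, to -0.18 with the median over both cards and 0.37 with the other controls. With the median over both cards, the groups of miR-17 did not overlap, with LETO at 3.57, 3.59 and 2.50 and OLETF at 3.89, 3.71 and 3.77, which made 1 of 5 members against 14.8% of all assays.

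**Figure D3:**
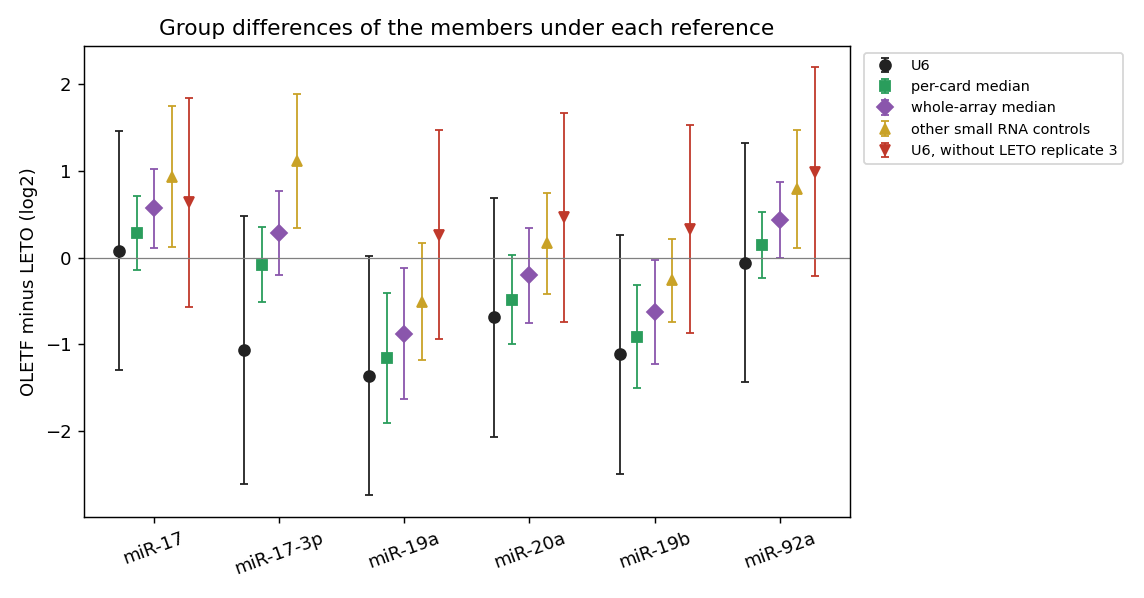
OLETF minus LETO (y axis, log2, points with bars of ± 1 SE from limma) of the 6 tested members under 4 references and, with U6, without LETO replicate 3. miR-17-3p has no value without LETO replicate 3; the points of miR-19a and miR-19b lie below 0 under the 4 references and above 0 with U6 when LETO replicate 3 is left out.

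Since all members sat on a single card, the difference between 2 members within a sample does not depend on any reference. It asks whether the signals of the members kept their proportions. In pairs with miR-17, miR-19b or miR-92a, the X copies may be part of the signal, so such pairs do not compare products of 1 transcript alone. Of the 10 pairs among the 5 members measured in all samples, 0 had groups that did not overlap, against 13.8% of all 7381 pairs of card A assays. The miR-17 signal exceeded that of miR-19a by 5.61, 4.54 and 1.85 log2 units in LETO and by 5.82, 6.32 and 4.18 in OLETF, a group difference of 1.44, the largest of the 10 pairs (exact permutation p = 0.4, n = 3 each; adjusted over 15 pairs with miR-17-3p 0.6). OLETF replicate 3 lay within the LETO range. Without LETO replicate 3 this difference was 0.37. Without OLETF replicate 3, the groups of 5 of the 10 pairs did not overlap, against 33.7% of all card A pairs; without LETO replicate 1 or 2, those of 2 pairs did not overlap, against 20.4% and 28.4%.

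The 2 pairs of members that share a seed had unlike SDs over the 6 samples, and the gap was smaller without LETO replicate 3. miR-19a minus miR-19b was -3.86 ± 0.75 in LETO hearts and -4.11 ± 0.32 in OLETF hearts (SD, n = 3; exact permutation p = 0.8), with an SD over all samples of 0.53. miR-17 exceeded miR-20a by 2.03 ± 1.06 in LETO hearts and 2.80 ± 0.90 in OLETF hearts (n = 3, exact permutation p = 0.4), with an SD over all samples of 0.98. Without LETO replicate 3 the SD was 0.53 for miR-19a against miR-19b and 0.67 for miR-17 against miR-20a. Well noise is part of both, since each member had a single well. Over the 10 member pairs the median SD was 0.83, and over all card A pairs 0.77; without LETO replicate 3 these were 0.64 and 0.60. The SD of miR-19b against miR-20a, which do not share a seed but lie next to each other in the transcript, was 0.48, or 0.31 without LETO replicate 3. With all 6 samples it was the lowest of the 10, but the pair with the lowest SD changed when LETO replicate 1, LETO replicate 3 or OLETF replicate 2 was left out.

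**Figure D4:**
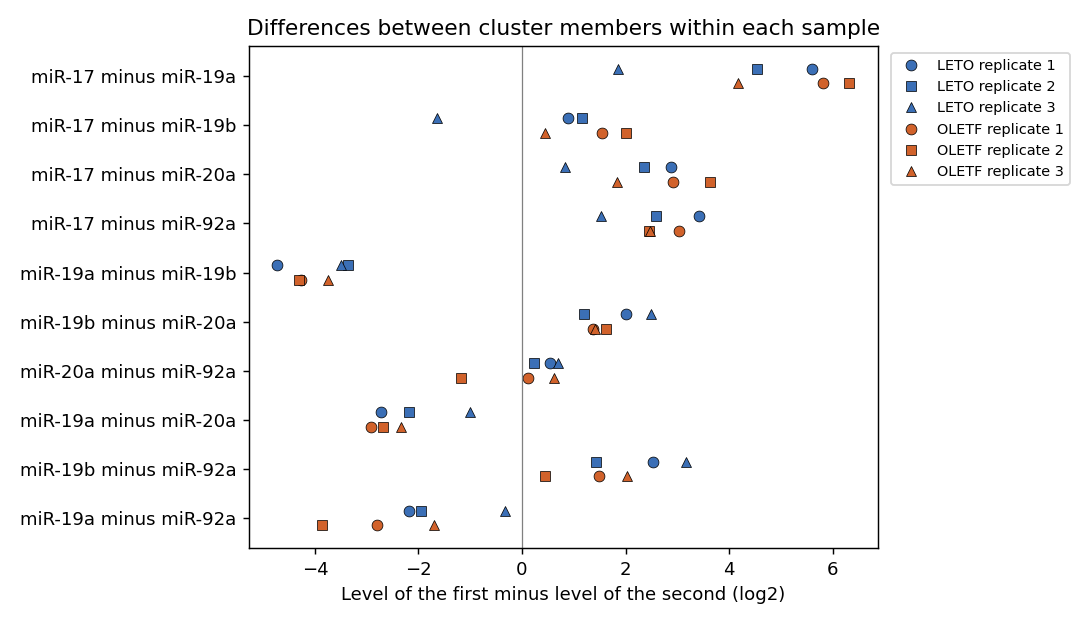
Difference in level between 2 members of the cluster within each sample (x axis, log2) for the 10 pairs of members measured in all 6 samples. Blue marks are LETO, orange marks OLETF, and marker shapes are replicates; in each row the 2 groups overlap, and LETO replicate 3 lies apart in the 3 rows of miR-17 against miR-19a, miR-19b and miR-20a.

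The signals of the members thus did not rise and fall by equal amounts from sample to sample. Each member had a single well, with an SD of 0.486 cycles for a well on the second card. How much of the unequal movement was well noise was not tested. Relative to the card median, the SD over the 6 samples was 1.24 for miR-19a, 0.93 for miR-19b and 0.68 for miR-20a, against 0.47 for miR-17 and 0.30 for miR-92a, with a median of 0.57 over 162 assays. miR-19a ranked 8th and miR-19b 24th of the 162 from the most variable, and miR-92a 149th. Without LETO replicate 3 the SD was 0.89 for miR-19a, 0.67 for miR-19b, 0.67 for miR-20a, 0.14 for miR-17 and 0.32 for miR-92a, with a median of 0.46 over all assays. The SD of miR-17 thus fell over 3 times without that sample. Without OLETF replicate 2 the SD of miR-20a was 0.47, below the 0.52 of miR-17. In LETO replicate 3 the Ct of miR-19a minus the mean of the other samples was -4.93 cycles, a drop larger than that of all but 2 of the 162 assays. For miR-17 it was -1.49, a smaller drop than the median assay. The more variable members were of both kinds of gene copy: miR-19b also has a copy on the X chromosome, while miR-19a and miR-20a have none in RefSeq.

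Among all assays measured in every sample, those whose profile was most like the members were named by the root mean square (RMS) distance of levels centred on their own mean, over 6 samples and relative to the card median. Averaged over the 5 members, it was smallest for miR-195 (0.54), miR-126-5p (0.55), miR-133b (0.56), miR-99a (0.56) and miR-148a (0.56). The median RMS distance among the members themselves, 0.75 over 10 pairs, was close to that of all 13041 pairs of assays, 0.73. Only miR-19a had another member as its nearest assay, which was miR-19b at 0.49. The nearest assay was miR-146a for miR-17 (0.12), miR-328 for miR-19b (0.29), miR-148a for miR-20a (0.24) and miR-7a* for miR-92a (0.18). Without LETO replicate 3 the median distance was 0.57 both among the members and among all pairs, and the nearest assay of miR-19a was then miR-20a. Leaving out each sample in turn kept 1 to 4 of the 5 assays named as most alike, with miR-195 among them each time, and the nearest assay of each member changed in at least 1 case. The distances share the same 6 samples, and each assay was set against the median of its own card, so they are a description only.

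The paralogous clusters carry relatives with the same seeds. Of the 8 miRNAs on that list 7 had an assay, 5 were tested, and 0 passed (limma adjusted p = 0.997 each); 4 lay lower in OLETF relative to U6 and to the card median, with medians of -0.46 and -0.26. The mouse miR-106a assay had the highest level, at -8.34, -10.11 and -7.37 in LETO and -9.82, -9.70 and -7.67 in OLETF. RefSeq lists no rat miR-106a sequence, since the gene Mir106a carries miR-17 itself. What the mouse miR-106a assay detected in rat was not tested, so its values may not be independent of miR-17. miR-93, encoded in the miR-106b-25 cluster on chromosome 12, had the largest absolute difference, -0.68 (SE 1.38), with -10.35, -12.15 and -8.21 in LETO and -11.76, -11.61 and -9.37 in OLETF. For both assays, miR-106a and miR-93, the groups overlapped and replicate 3 was the highest of its group, as for miR-17 and miR-20a. The sequences of miR-93 and of miR-25, of the same cluster, show the seeds they share with miR-17 and miR-92a.

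miR-93: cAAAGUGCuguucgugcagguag
miR-25: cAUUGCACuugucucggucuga

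Of the seed relatives outside these clusters, miR-32 was measured in LETO replicate 3 alone (-15.71) and miR-367 in no sample, so neither could be tested. miR-18b and miR-363, of the X cluster, were also measured in no sample.

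The authors' deposited table of ratios of OLETF over LETO listed 1.06 for miR-17, 0.960 for miR-92a, 0.620 for miR-20a, 0.462 for miR-19b and 0.389 for miR-19a, the same differences relative to U6 on a linear scale. For the other 2 members the ratio depended on undetermined wells, which the authors' deposited normalized table counts as 40 cycles. The authors' deposited table of ratios listed miR-17-3p at 4.27, the highest of the 7, although its measured OLETF levels were lower than its LETO levels in 5 of 6 pairs of samples. Its deposited delta Ct in LETO replicate 2, where no Ct was recorded, was 22.54, against 12.24 to 14.56 in the other 5 samples. The authors' deposited table listed miR-18a at 0.756, with 3 of 6 samples undetermined.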

How the data were processed

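RNA of left ventricular tissue was isolated with a mirVana kit, reverse-transcribed with a Megaplex stem-loop primer pool and amplified in a 7900HT instrument, per the labels' protocols. The design text names TaqMan cards, while the sample labels name SYBR Green. The instrument's baseline and threshold settings are not given in the sources used here. The first deposited table held the Ct of 768 wells per sample, in 2 blocks of 384 called cards here. The deposited delta Ct values run on a log2 scale, where higher means less RNA; the members' values equalled Ct minus the mean U6 Ct of the card within 2.5e-06 when recomputed. The last table held the authors' deposited ratio (fold) of OLETF over LETO.

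Wells of an assay with a Ct were averaged per card. Assays measured (Ct under 35) in at least 2 samples of each group were compared on levels relative to U6. The test was limma 3.58.1 (lmFit, eBayes, two-sided) in R 4.3.3, adjusted after Benjamini-Hochberg, at a threshold of 0.05. The code of the fit was tested on simulated data without a common shift between samples, so that check does not tell how well it suits these data. Single values were compared by exact permutation tests. The number of samples and the single well per member limit the precision.

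The members, the lists and the tests were chosen with earlier results of these data known. The rule named all members, the member with the highest level and that with the largest absolute difference of each related list, the 5 assays most alike by RMS distance, and the controls. Alternatives were Ct limits of 32, 38 or none, other references, the authors' deposited delta Ct, assays measured in all 6 samples, a replicate block, array weights, replicates 1 and 2 only, and each sample left out.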

Additional observations from a re-analysis of the deposited data

How the results depend on the processing

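Across all alternatives run, 0 members passed an adjusted p of 0.05 (limma). At an unadjusted p under 0.05 (limma) there was 1 of 6 members with array weights, miR-19b (-1.47, SE 0.69, limma adjusted p = 0.121), against 64 of 193 assays. With the card median within replicates 1 and 2 there was 1 of 5 members, miR-19a, against 25 of 163 assays. The other settings gave 0 members. The number of assays called rose from 0 of 193 to 1 with the replicate block and to 32 with array weights. Why it rose was not tested. The array weights were very uneven. LETO replicate 1 had a weight of 3.07, while LETO replicate 2 had only 0.325 and LETO replicate 3 only 0.2385. In OLETF, replicate 1 had 3.21, replicate 2 had 3.67 and replicate 3 had 0.357. The LETO side of the weighted fit thus rested mostly on a single rat. Its 32 calls and its miR-19b result are therefore not a comparison of 3 equally weighted samples a group. Same-numbered samples had correlations of deviations of -0.088, 0.23 and 0.62. With 3 samples a group, these values cannot tell whether replicate numbers mark pairs or a shared batch. The block lowered the limma SE of miR-19a from 1.38 to 0.81 and changed no call of a member. The difference of miR-92a was above 0 with the per-card median (0.14), the whole-array median (0.43), the other small RNA controls (0.79), array weights (0.025), replicates 1 and 2 (0.40), and, relative to the card median in subsets chosen after seeing the data, when LETO replicate 3 was left out (0.25) or within replicates 1 and 2 (0.14). That of miR-17-3p was above 0 with the whole-array median (0.28), the other controls (1.11) and the deposited normalized table (2.10), which counts an undetermined well as 40 cycles. miR-20a turned to 0.16 with the other controls. miR-17 fell below 0 with array weights (-0.49) and, relative to the card median, in the same subsets, when LETO replicate 3 was left out (-0.11) or within replicates 1 and 2 (-0.12).

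With each sample left out in turn (U6), miR-17 ran from -0.59 to 0.64, miR-19a from -2.49 to 0.27, miR-19b from -2.30 to 0.33, miR-20a from -1.66 to 0.46 and miR-92a from -0.77 to 0.99; the highest values came without LETO replicate 3. The median member difference ran from -1.53 to 0.46, and over all alternatives up to 0.48. Member pairs whose groups did not overlap ran from 0 to 5 of 10, with the 5 without OLETF replicate 3. Of 5 neighbours in the order of levels, which was taken from the samples compared, 3 to 4 kept 1 sign in every sample. With 3 samples a group and 1 well per member, the SE of 1.38 against U6 exceeded the differences of the 5 members measured in all samples when all samples were weighted equally.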
